A study of Mus musculus with 16 samples.

Results

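The genes described here encode the cornified envelope and the surface barrier of the epidermis. They were chosen by symbol alone: every Sprr, Lce and Klk gene with a number in its symbol, and 19 further symbols such as Flg, Ivl, Lor and Asprv1, of which 17 were found on the array. Each gene was read from the probe set, among those assigned to that symbol only, with the highest mean over the 16 arrays. This gave 61 of the 18194 genes on the array. Of the 61, 49 could be tested, since their signal passed the 40th percentile of all probe sets on 2 arrays or more. Most of the 61 lay on 2 chromosomes, 32 on chromosome 3 and 24 on chromosome 7.

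The study sorted cells by flow cytometry from mouse tail epidermis at stages of tumour growth driven by SmoM2, a constantly active form of the hedgehog receptor component Smoothened that causes basal cell carcinoma. Basal interfollicular epidermis (IFE) cells carried K14CREER/Rosa-SmoM2-YFP, so that a keratin 14 promoter drove a Cre that tamoxifen activates, and were taken untreated (the control, 3 arrays) or as SmoM2-positive cells 3 days (1 array), 1 week (3 arrays), 4 weeks (3 arrays) and 10 weeks (2 arrays) after tamoxifen. A further group carried the same alleles and b-cat flox/flox, so that β-catenin was deleted together with SmoM2 activation, and was taken at 4 weeks (2 arrays). Bulge and outer root sheath cells carried K19CREERT2/Rosa-SmoM2-YFP and were taken untreated (1 array) and 4 weeks after tamoxifen (1 array). The mice were of mixed strain, and the labels give no age. The labels do not say whether replicates were separate mice, so the p-values below speak only for the spread between these samples, which may be technical. No group had tamoxifen without SmoM2, or β-catenin loss without SmoM2, so the effects of SmoM2, of tamoxifen, of time and of the sort for SmoM2-positive cells cannot be told apart.

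When a keratinocyte leaves the basal layer it builds, under its membrane, a shell of proteins that transglutaminases cross-link: involucrin first, then loricrin, the small proline-rich (Sprr) proteins and the late cornified envelope (Lce) proteins. Large proteins of the fused S100 family, such as profilaggrin, are packed into granules and then cut by proteases into units that bundle keratin and hold water, while lipids are secreted between the dead cells. Kallikrein (Klk) proteases later cut the junctions between those cells so that the outermost ones are shed. Sprr genes are also known as genes that epidermis switches on after injury. In sorted bulk cells, fewer differentiating cells and less RNA per cell cannot be told apart.

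The Sprr and Lce1 genes lie in the same gene cluster, yet those tested differed on the 3-day array, at 10 weeks and with β-catenin loss. With that loss the Lce1 means lay below every control, and the Sprr means lay within the control range. Both families stood above every IFE control on 4-week replicate 3 (Sprr and Lce1 means 8.41 and 8.24). The same held on the bulge SmoM2 array (8.39 and 8.48). Asprv1, from another chromosome, had the largest difference at 4 and 10 weeks. The sequences of 6 start regions of these genes are therefore shown. Each runs from 250 bases before to 50 bases after the RefSeq transcript start, 5′ to 3′ along the gene (RefSeq, GRCm38.p6). The windows are chr3:92338890-92339189 on the plus strand for Sprr2d, chr3:92385435-92385734 on the plus strand for Sprr2h, chr3:92407741-92408040 on the plus strand for Sprr2i, chr3:92648258-92648557 on the minus strand for Lce1a1, chr3:92687161-92687460 on the minus strand for Lce1d and chr6:86627924-86628223 on the plus strand for Asprv1. Capitals mark matches, on either strand, to an AP-1 motif (TGANTCA), an octamer motif (ATGCAAAT) and a TATA box (TATAAA).
Sprr2d: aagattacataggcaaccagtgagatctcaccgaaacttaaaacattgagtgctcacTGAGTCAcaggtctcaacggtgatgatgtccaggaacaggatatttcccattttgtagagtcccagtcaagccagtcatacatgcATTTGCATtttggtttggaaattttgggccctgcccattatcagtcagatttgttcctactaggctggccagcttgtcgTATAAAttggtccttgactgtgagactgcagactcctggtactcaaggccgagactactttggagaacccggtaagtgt
Sprr2h: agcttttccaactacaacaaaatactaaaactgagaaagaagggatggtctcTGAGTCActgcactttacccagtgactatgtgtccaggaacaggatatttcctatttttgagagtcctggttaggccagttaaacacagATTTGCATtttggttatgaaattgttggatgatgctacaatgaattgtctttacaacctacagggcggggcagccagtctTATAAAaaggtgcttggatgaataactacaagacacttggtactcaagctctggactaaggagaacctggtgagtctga
Sprr2i: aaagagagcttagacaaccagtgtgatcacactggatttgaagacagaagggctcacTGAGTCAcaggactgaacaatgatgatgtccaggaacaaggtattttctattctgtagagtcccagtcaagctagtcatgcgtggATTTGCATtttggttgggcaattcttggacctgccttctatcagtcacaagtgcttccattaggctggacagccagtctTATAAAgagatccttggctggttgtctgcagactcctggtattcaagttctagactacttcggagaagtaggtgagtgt
Lce1a1: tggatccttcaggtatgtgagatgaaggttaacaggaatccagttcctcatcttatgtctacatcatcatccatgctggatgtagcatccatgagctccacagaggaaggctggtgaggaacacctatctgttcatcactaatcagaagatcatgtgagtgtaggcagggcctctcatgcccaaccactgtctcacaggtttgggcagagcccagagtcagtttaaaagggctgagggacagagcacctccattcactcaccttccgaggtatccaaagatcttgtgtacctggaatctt
Lce1d: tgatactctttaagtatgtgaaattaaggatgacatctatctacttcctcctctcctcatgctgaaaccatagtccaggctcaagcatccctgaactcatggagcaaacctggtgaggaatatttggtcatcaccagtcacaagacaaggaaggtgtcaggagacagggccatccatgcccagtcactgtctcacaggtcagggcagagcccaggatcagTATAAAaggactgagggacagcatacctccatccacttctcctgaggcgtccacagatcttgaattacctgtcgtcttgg
Asprv1: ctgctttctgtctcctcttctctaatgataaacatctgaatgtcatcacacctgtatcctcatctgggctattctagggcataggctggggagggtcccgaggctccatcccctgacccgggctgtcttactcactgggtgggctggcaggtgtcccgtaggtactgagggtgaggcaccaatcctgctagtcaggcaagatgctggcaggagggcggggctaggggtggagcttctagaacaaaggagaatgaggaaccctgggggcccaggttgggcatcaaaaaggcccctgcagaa

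Start regions were found for 55 of the 61 genes (59 windows). Aloxe3, Crct1, Klk1b7-ps, Kprp, Lce1f and Sprr2j-ps had no entry. The 5 Sprr2 windows had the same layout: a TATA box that began 29 bases before the start, an octamer match 108 to 112 bases before it and an AP-1 match 193 to 198 bases before it. A TATA box stood in 8 of 8 Sprr windows and 2 of 10 Lce1 windows, against 13.6% of 32851 mouse start regions of the same length. An AP-1 match stood in 7 of 8 Sprr windows, 0 of 10 Lce1 windows and 7.81% of all windows, and an octamer match in 5 of 8, 0 of 10 and 1.74%. Asprv1 held none of these 3. The AP-1 motif is its own reverse complement, so each match was counted once. The other motifs searched, on both strands and free to overlap, were GGGTGGG (Klf), AACCNG (grainyhead), CACGTG (E-box), CCGGAA (Ets), ATCAAAG (Tcf/Lef), GACCACCCA (Gli) and GCCNNNGGC (AP-2). The Gli motif stood in 0 of 59 member windows (0.253% of all), the Tcf/Lef motif in 1 (3.73% of all) and the grainyhead motif in 38 (39.4% of all). The Klf motif stood in 11 (17.5%), the E-box in 1 (7.15%), the Ets motif in 4 (14.9%) and the AP-2 motif in 6 (16.6%). The 5 Sprr2 windows were alike, with a median identity of 66.4% over 10 pairs (59.4 to 81.8%), and so were the Lce1 windows other than those of Lce1l and Lce1m, at 65.7% over 28 pairs (58.6 to 86.0%). Pairs with Lce1l or Lce1m had a median of 49.9% over 17 pairs (47.8 to 51.9%), and the other Sprr pairs one of 48.4% over 18 pairs (45.5 to 52.6%). These matches describe letters only. Lce1, Sprr2 and glandular Klk genes are close copies of one another, and their probe sets may read more than 1 of them.

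The labels were checked on other genes. The basal keratins Krt5 and Krt14 were bright on all 16 arrays, and so were Krt1 and Krt10 (9.41 to 13.15 and 12.27 to 14.07), keratins of the differentiating layers above. Gli1, a direct hedgehog target, read 5.30 to 5.73 in control arrays, 7.28 at 3 days, 8.50 to 10.16 at 1 week, 9.95 to 10.83 at 4 weeks, 9.70 and 9.86 at 10 weeks, and 7.22 and 9.56 with β-catenin loss. On the array labelled bulge control Gli1 read 9.89, next to 9.96 on the bulge SmoM2 array, and the bulge marker Cd34 read 9.72 and 6.83. Gli1 on that control was thus far above the IFE controls. With no other untreated bulge array to set it against, this level does not settle whether the array was untreated. Its source label, though, names SmoM2-positive cells. The title was followed, and each bulge value below rests on that array. The Ctnnb1 signal with β-catenin loss (12.76 and 12.93) lay at the level of controls (12.76 to 13.04). Where its probe set lies relative to the deleted exons was not analysed here, so it checks nothing. All values are log2 array signals, and no probe's level was set against that of another.

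No member passed an adjusted p of 0.05 (limma, Benjamini-Hochberg over 14286 genes) in any of the 8 IFE comparisons. At 4 weeks against control, where 3.24% of all genes passed, 3 of 49 members were higher at an unadjusted p under 0.05 (8.67% of all genes) and 1 lower (6.42%). At 10 weeks, where 0.7% of all genes passed, 5 were higher (6.15%) and 0 lower (4.49%). With β-catenin loss against control (0.371% of all genes passed) 0 were higher (6.14%) and 6 lower (8.48%), and against SmoM2 alone (2.23% passed) 2 were higher (6.57%) and 5 lower (10.6%).

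In the other 4 comparisons 0% of all genes passed by limma. At an unadjusted p under 0.05, 1 member was higher and 0 lower at 1 week (3.09% and 1.65% of all genes), and 5 and 0 at 3 days (1.11% and 0.441%). From 1 to 4 weeks the counts were 1 and 0 (3.07% and 1.74%), and from 4 to 10 weeks 1 and 0 (2.95% and 3.3%). What follows gives sizes and array-by-array values. The words higher and lower refer to means or arrays, not to calls.

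**Figure D1:**
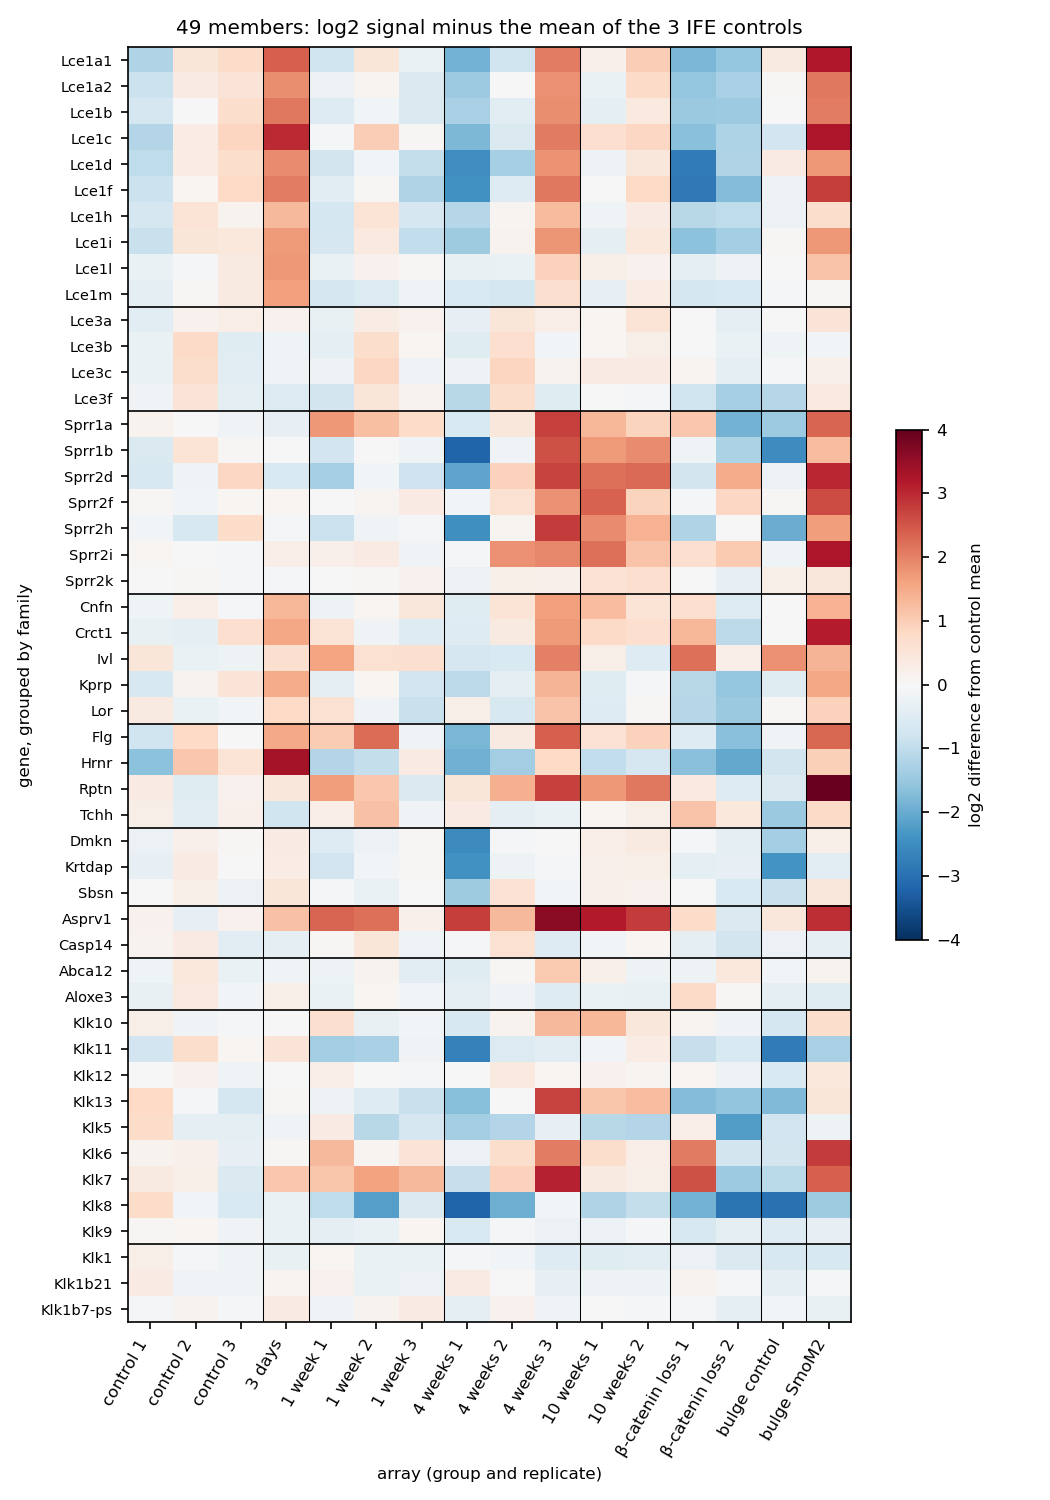
Difference of the log2 signal from the mean of the 3 IFE control arrays (colour, −4 to 4) for the 49 tested genes (rows, grouped by family with lines between) on all 16 arrays (columns, groups separated by lines). Replicates 1 and 3 of the 4-week group lie on opposite sides of control for most Lce1 and Sprr genes.

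The clearest feature of these genes was how far the 4-week SmoM2 arrays lay from one another. Replicate 1 was the lowest of the 3 for 41 of 49 members and replicate 3 the highest for 35. The share of all genes in that order was not counted. The span between the highest and lowest 4-week array had a median of 2.23 over the members, against 0.69 over all genes, and it reached 4-fold for 28 of 49 members against 4.49% of all genes. In the control and 1-week groups the members' median spans were 0.79 and 0.84, against 0.52 and 0.58 over all genes. Replicate 3 stood above the control mean for 35 members (41.6% of all genes), replicate 2 for 26 (49.5%) and replicate 1 for 6 (49.3%). By at least 2-fold, replicate 3 stood above for 27 members and below for 0. Replicate 1 stood so far above for 1 and below for 22, and replicate 2 above for 3 and below for 4. The shares of all genes past these 2-fold limits were not counted. Replicate 3 was the highest of all 14 IFE arrays for 15 members (3.28% of all genes), and replicate 1 the lowest for 16 (8.84%).

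The 4-week means hide this. Their median difference from control over the members was 0.07, against −0.05 over all genes. At least 2-fold higher were 4 of 49 members (4.9% of all genes), and at least 2-fold lower 2 (2.96%). Without replicate 1 the members' median was 0.49 and 14 were at least 2-fold higher and 1 lower. Leaving out replicate 2 gave 4 members at least 2-fold lower, and leaving out control replicate 1 gave 5. With array weights 8 were at least 2-fold higher. Without replicate 3 the median was −0.27, with 1 member at least 2-fold higher and 12 lower.

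Sprr1b, a small proline-rich envelope precursor, spanned the most at 4 weeks: 4.58, 7.66 and 10.35 on the 3 arrays, against 7.20, 8.34 and 7.83 in controls. Its mean difference of −0.26 ± 1.03 (SE) lay near the value of replicate 2 and far from those of replicates 1 and 3. The markers of the layers above the basal one that are not members (7 genes, such as Krt1, Krt10 and Tgm3) had means of 9.19, 8.94 and 10.00 on the 3 arrays, against 10.87 to 11.41 in controls, and replicate 1 was not the lowest. The 52 genes of cornification outside these families had means of 8.15, 8.83 and 9.26, in the order of the members, against 8.85 to 9.01 in controls. Replicate 1 was the lowest for 28 of the 52 and replicate 3 the highest for 31, with no share over all genes counted. The median span of the 52 was 1.22, against 0.69 over all genes, so these genes too were spread more widely, though a span shows no order. The 7 suprabasal markers above are among the 52. The leukocyte markers (8 genes) had means of 5.49, 6.12 and 6.67, in the order of the members, against 5.43 to 6.27 in controls. The part of other cells in the spread was not tested.

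Asprv1, the skin aspartic protease that cuts profilaggrin, had the largest difference of all members at 4 and at 10 weeks. It read 6.50, 5.99 and 6.50 in controls, 7.50 at 3 days, 8.65, 8.52 and 6.52 at 1 week, 9.10, 7.63 and 9.92 at 4 weeks, 9.50 and 9.13 at 10 weeks and 7.07 and 5.74 with β-catenin loss. Every SmoM2 array without β-catenin loss was above every control, 1-week replicate 3 only just, and the loss arrays lay on either side of the controls. The mean was 5.89-fold higher at 4 weeks (2.56 ± 0.63, SE, adjusted p 0.0526) and 7.93-fold higher at 10 weeks (2.99 ± 0.71, adjusted p 0.0874). At 1 week it was 1.57 ± 0.63 higher (adjusted p 0.923), and 2.25 higher without 1-week replicate 3.

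The 4-week value sat at the edge of the threshold. With the replicate number as a block over all 14 IFE arrays, the limma adjusted p was 0.0415 and 873 genes passed in place of 463. That block also took in the 3-day, 10-week and β-catenin loss arrays, though only control, 1-week and 4-week arrays deviated together by number. Against SmoM2 alone, β-catenin loss gave a mean 5.58-fold lower (−2.48 ± 0.71, adjusted p 0.0919), and the groups did not overlap. Without 4-week replicate 2 that difference was −3.11 (adjusted p 0.0492). Against control, the β-catenin loss mean differed by 0.08 ± 0.71. The other protease of this pathway, caspase-14 (Casp14), which degrades filaggrin, read 7.65, 7.85 and 7.05 in controls, 7.15 at 3 days, 7.56, 8.0 and 7.33 at 1 week, 7.47, 8.14 and 7.01 at 4 weeks, 7.40 and 7.60 at 10 weeks and 7.15 and 6.79 with β-catenin loss. The groups overlapped at 4 and 10 weeks (0.02 ± 0.31 and −0.02 ± 0.34 against control), although a further probe set of Casp14 gave −1.11 at 4 weeks.

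**Figure D2:**
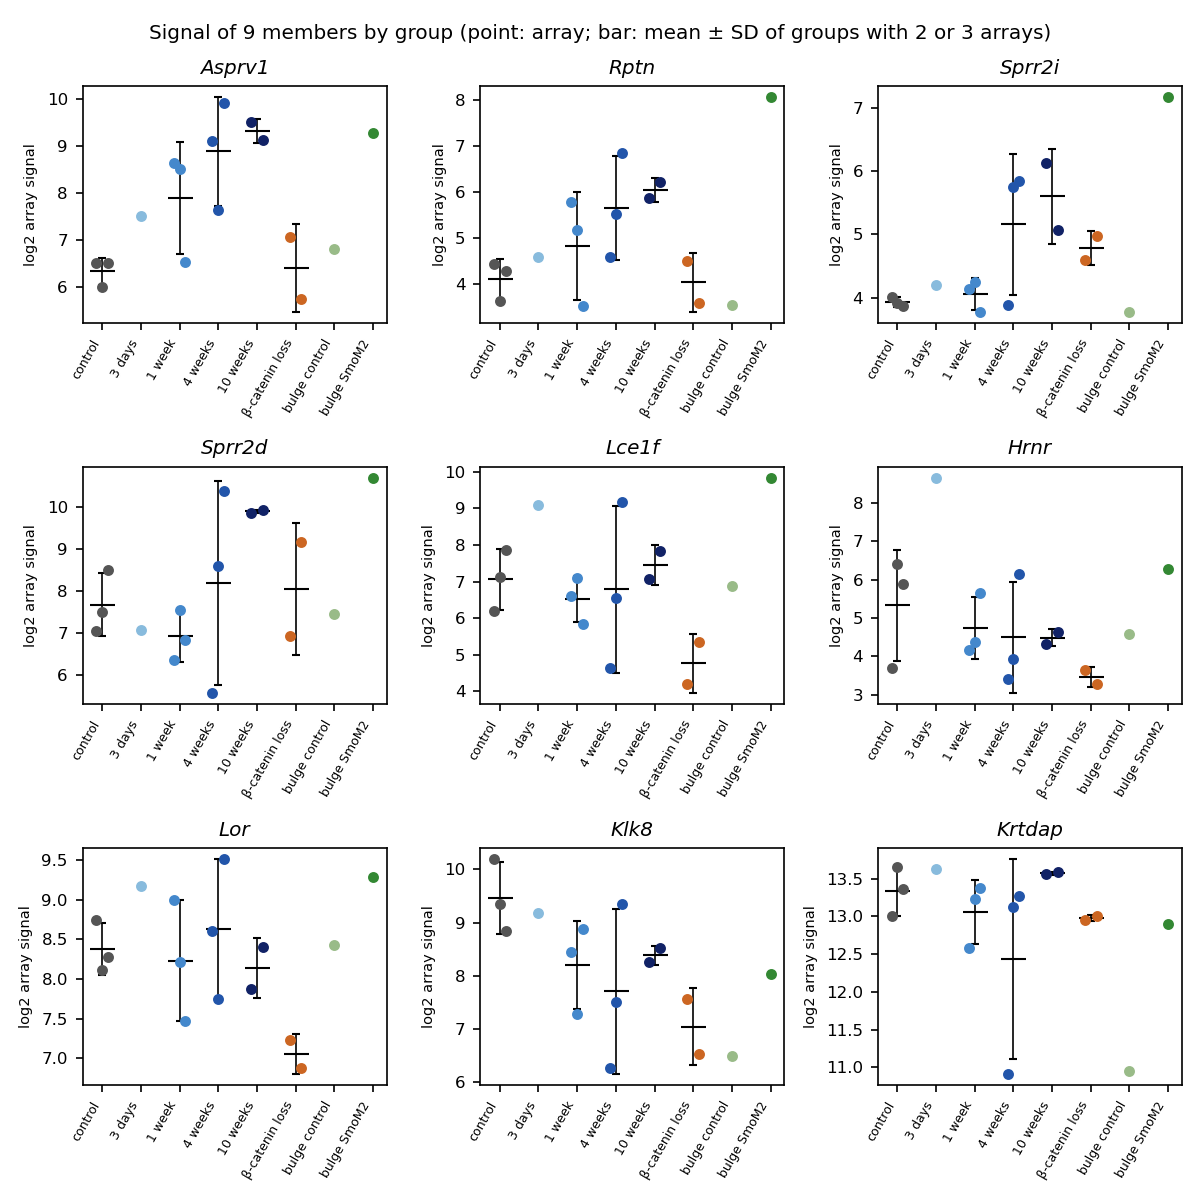
Log2 array signal (vertical axis) of 9 members in each of the 8 groups (horizontal axis). Points are arrays and bars are the mean ± SD of groups with 2 or 3 arrays; Asprv1 at 10 weeks lies at 9.50 and 9.13, above the controls at 5.99 to 6.50.

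At 10 weeks the Sprr genes read by probe sets of their own stood above control. Of 9 Sprr genes, 5 (Sprr1a, Sprr1b, Sprr2d, Sprr2h and Sprr2k) passed the 40th percentile on at least 2 control arrays. All 5 lay above every control on both 10-week arrays, 4 at least 2-fold, with a median difference of 1.63. Sprr2f and Sprr2i lay above every control as well, but were below the percentile on every control array and could be tested only through other arrays, 10-week replicate 1 among them. Sprr3 and Sprr2j-ps, too dim to test, had means of 4.52 and 4.33 at 10 weeks against 4.49 and 4.26 in controls. The median was 0.20 over all 49 members tested and −0.06 over all genes. Over all members 15 of 49 lay above every control (16.8% of all genes) and 4 below (20.5%). At least 2-fold higher were 9 (4.77% of all genes): 6 Sprr genes, Asprv1, Rptn and Klk13, of which Sprr2f, Sprr2i and Rptn were below the percentile on every control array. At least 2-fold lower were 2 (2.71%), Klk5 and Klk8, and 1 without 10-week replicate 1 or without control replicate 1. With the signal of Y-linked genes as a covariate, 16 members were at least 2-fold higher.

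Other Sprr2 readings went the other way. The 3 probe sets shared by the Sprr2a genes, which the choice of probe sets with 1 symbol leaves out, were lower than control at 10 weeks by 1.49, 1.2 and 0.72 in mean. One of them read 10.41, 9.51 and 11.34 in controls, 6.90, 8.07 and 10.38 at 4 weeks, 9.03 and 8.85 at 10 weeks and 6.90 and 9.69 with β-catenin loss, so its 10-week arrays lay below every control. The 10-week values above are therefore not those of every Sprr gene.

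Sprr2d read 7.03, 7.49 and 8.50 in controls, 7.06 at 3 days, 6.36, 7.55 and 6.84 at 1 week, 5.57, 8.60 and 10.39 at 4 weeks, 9.87 and 9.93 at 10 weeks and 6.94 and 9.16 with β-catenin loss. The 10-week arrays were above every control, and the 4-week and loss arrays lay on either side. The 10-week mean was 4.68-fold higher (2.23 ± 1.09, adjusted p 0.517). Sprr2i read 4.01, 3.91 and 3.87 in controls, 4.20 at 3 days, 4.14, 4.25 and 3.78 at 1 week, 3.88, 5.75 and 5.84 at 4 weeks, 6.13 and 5.07 at 10 weeks and 4.60 and 4.98 with β-catenin loss. The 10-week, loss and 3-day arrays were all above the controls, and replicate 1 at 4 weeks was not. The differences were 1.23 ± 0.45 at 4 weeks (adjusted p 0.203), 1.87 there without replicate 1 (adjusted p 0.0244), and 1.67 ± 0.51 at 10 weeks (adjusted p 0.170).

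Sprr1b (1.81 ± 1.15) and Sprr2h (1.63 ± 1.08) followed at 10 weeks, with Sprr2f at 1.63 ± 0.53 and Sprr2k at 0.63 ± 0.19. Their adjusted p-values ran from 0.178 for Sprr2k to 0.719 for Sprr2h. Sprr1a, another cross-linked envelope precursor, read 8.15, 8.04 and 7.88 in controls, 7.69 at 3 days, 9.78, 9.24 and 8.75 at 1 week, 7.42, 8.49 and 10.75 at 4 weeks, 9.34 and 8.91 at 10 weeks and 9.09 and 6.12 with β-catenin loss. The 1-week and 10-week arrays lay above every control, the 3-day array lay just below them, and the 4-week and loss arrays lay on either side. The Sprr1a differences were 1.23 ± 0.80 at 1 week, 0.86 ± 0.80 at 4 weeks and 1.10 ± 0.90 at 10 weeks, with adjusted p-values from 0.736 to 0.9999. Without 4-week replicate 3 the second was −0.07.

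S100a8 and S100a9, alarmins of stressed keratinocytes and of neutrophils, were set beside the Sprr genes after their values were seen. S100a8 read 6.53, 6.78 and 10.66 in controls, 5.01, 12.30 and 11.55 at 4 weeks, 13.04 and 12.40 at 10 weeks and 10.79 and 12.35 with β-catenin loss. S100a9 read 4.87, 5.18 and 9.82 in controls, 4.47, 11.43 and 11.06 at 4 weeks, 12.79 and 12.02 at 10 weeks and 10.28 and 12.21 with β-catenin loss. Replicate 1 at 4 weeks was the lowest of the 16 arrays for S100a8 and S100a9, as it was the lowest of the IFE arrays in the Sprr mean. The loss arrays were high for both genes, while their Sprr means (6.23 and 6.28) lay within the control range (6.15 to 6.51). The leukocyte markers had means of 5.39 and 5.45 at 10 weeks, at the low end of the controls (5.43 to 6.27). Markers of other cells differed more at 10 weeks. The bulge and outer root sheath markers had means of 9.87 and 9.81 against 7.57 to 7.92 in controls, with 7 of 8 higher in mean and Lgr5 and Lhx2 passing the test. The sebaceous markers (6.60 and 6.96 against 7.58 to 8.44) were lower in mean for 7 of 7, and those of tail scale and hair (5.59 and 6.06 against 7.57 to 8.08) for 7 of 7, with Krt36 and Krt84 passing. The melanocyte markers had means of 5.62 and 6.45 against 7.07 to 9.14, lower for 7 of 8. The part of stress or of other cells in the Sprr values was not tested.

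**Figure D3:**
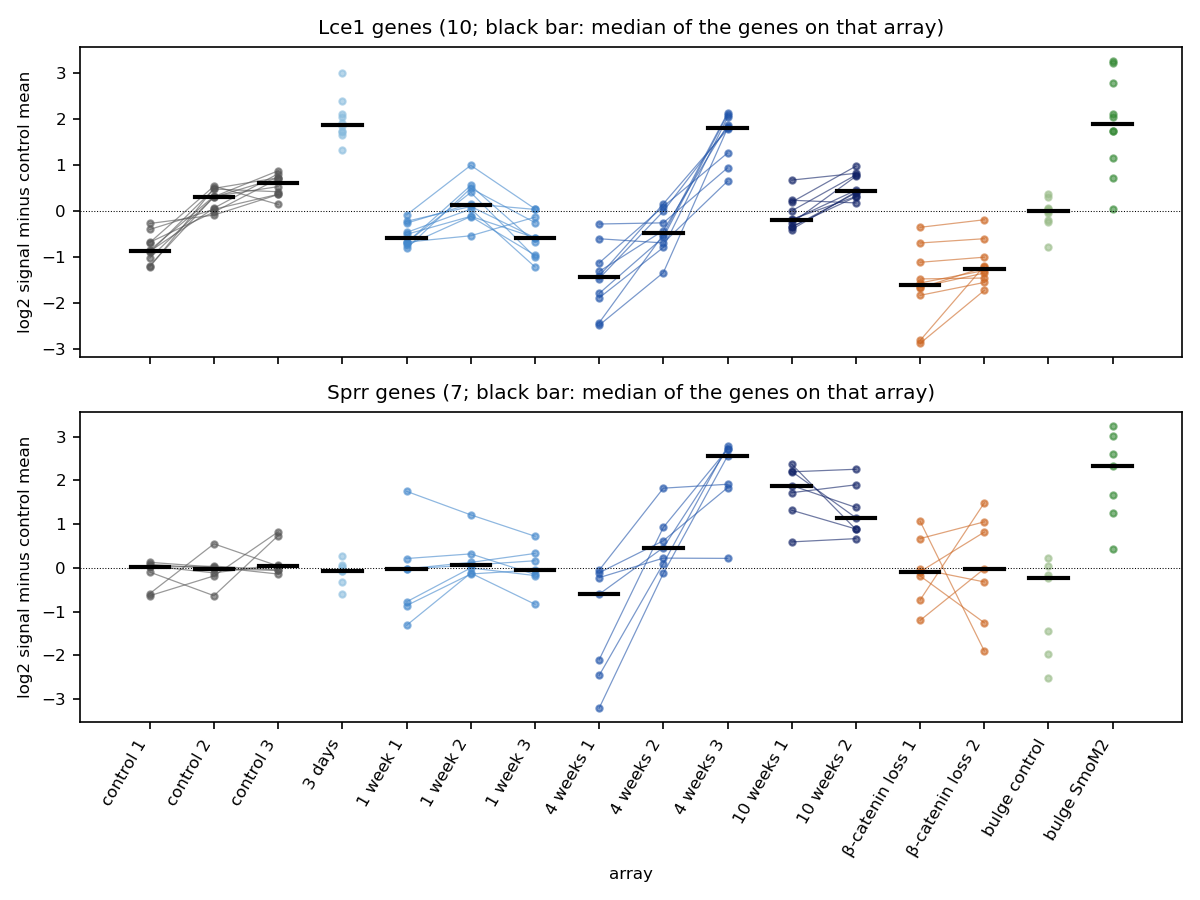
Difference of the log2 signal from the control mean (vertical axis) of the 10 tested Lce1 genes (top) and 7 tested Sprr genes (bottom) on all 16 arrays; lines join a gene's values within a group and black bars are medians. The 3-day array stands above control for Lce1 and not for Sprr, and both 10-week arrays stand above control for Sprr.

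Lce1 genes, which encode late envelope proteins, showed another order. Of 11 Lce1 genes, 8 passed the 40th percentile on at least 2 control arrays. On the 3-day array all 8 were at least 2-fold above the control mean and above every control array, with a median of 1.97. Lce1l and Lce1m, higher there by 1.74 and 1.65, were below the percentile on every control array and passed the filter only through the 3-day array and 1 other. Lce1g, too dim to test, read 5.01 against a control mean of 4.48. For 8 of the 10 tested, Lce1l and Lce1m among them, the 3-day array was the highest of the 14 IFE arrays. Over all members 17 of 49 were at least 2-fold higher there (1.67% of all genes) and 0 lower (0.623%), or 1 lower without control replicate 2. Of the 43 members above the percentile on at least 2 control arrays, 15 were at least 2-fold higher, with no share counted over all genes so filtered. Of all 49, 24 were above every control (24.6% of all genes), 6 below every control (19.4%), and 11 highest of the IFE arrays (9.62%). Lce1l and Lce1m are among the 17, the 24 and the 11. The 3-day group is 1 array whose spread was taken to be that of the others, and the lowest adjusted p of a member was 0.9999. Gli1 on that array lay between the controls and the 1-week arrays.

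The mean of the Lce1 genes per array was 5.80, 6.85 and 7.17 in controls, 8.57 at 3 days, 6.09, 6.80 and 6.07 at 1 week, 5.13, 6.17 and 8.24 at 4 weeks, 6.54 and 7.14 at 10 weeks and 5.0 and 5.45 with β-catenin loss. The 3-day array and 4-week replicate 3 were the highest IFE arrays, and the loss arrays and 4-week replicate 1 the lowest. The controls were themselves spread, and control replicate 1 was the lowest of the 3 for 10 of 10 Lce1 genes. Lce1f read 6.19, 7.13 and 7.87 in controls, 9.10 at 3 days, 6.60, 7.10 and 5.85 at 1 week, 4.64, 6.55 and 9.18 at 4 weeks, 7.07 and 7.84 at 10 weeks and 4.19 and 5.34 with β-catenin loss. The 3-day array was above every control and both loss arrays were below. Its 3-day difference was 2.04 ± 1.26.

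Lce1c (2.98 ± 1.14) and Lce1a1 (2.39 ± 1.17) had the largest 3-day differences of the family. Lce1c read 8.97 at 3 days against 4.81 to 6.86 in controls, and Lce1a1 9.08 against 5.47 to 7.41. The further probe sets of Lce1a1 and Lce1f were also highest of the IFE arrays at 3 days (8.91 and 6.19). The most negative 3-day differences were those of Tchh (−0.81 ± 0.49), Sprr2d (−0.61 ± 1.38) and Lce3f (−0.54 ± 0.62).

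β-catenin loss with SmoM2 went with low Lce1 signals. Against control all 10 Lce1 genes were lower in mean, 8 at least 2-fold, and 9 lay below every control array, with a median of −1.45. Over all members 15 of 49 were at least 2-fold lower (4.08% of all genes) and 17 lay below every control (20.7%), while the median over members was −0.36, against −0.12 over all genes. Lying above every control were 2 members (13%), Sprr2i and Tchh.

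The most negative differences against control were those of Klk8 (−2.42 ± 0.76, adjusted p 0.174), Lce1f (−2.29 ± 1.00, adjusted p 0.320), Lce1d (−2.00 ± 0.99, adjusted p 0.378) and Hrnr (−1.86 ± 0.85, adjusted p 0.340). Involucrin (Ivl) was the 1 member at least 2-fold higher in mean (1.24 ± 0.77; 3.14% of all genes), and Sprr2i, Tchh and Klk6 followed at 0.86, 0.77 and 0.67. The Ivl value rests on 1 array: the loss arrays read 7.50 and 5.55, and without replicate 1 the difference was 0.27. Without loss replicate 2 there were 6 members at least 2-fold higher, and without loss replicate 1 there were 2. Klk6 read 7.79 and 4.99 on the loss arrays, and without replicate 1 its difference was −0.72.

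Against SmoM2 alone at 4 weeks, 41 of 49 members were lower in mean with β-catenin loss (58.4% of all genes), with a median of −0.41 against −0.09 over all genes. At least 2-fold lower were 16 (6.19%) and higher 0 (3.7%). Below every 4-week array lay 5 (17.6%), which were Asprv1, Kprp, Lce1b, Lor and Rptn, and above it 2 (11.1%), Aloxe3 and Tchh. The Lce1 median was −1.42. These values rest on the 4-week replicates: without replicate 3 the Lce1 median was −0.45 with 3 members at least 2-fold lower and 2 higher, and without replicate 1 it was −2.22 with 24 and 1. Without loss replicate 2, 6 were at least 2-fold higher, and without 4-week replicate 2, 1.

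Loricrin (Lor), the main protein of the envelope, read 8.74, 8.11 and 8.27 in controls, 9.17 at 3 days, 9.0, 8.22 and 7.48 at 1 week, 8.61, 7.75 and 9.52 at 4 weeks, 7.87 and 8.41 at 10 weeks and 7.24 and 6.88 with β-catenin loss. Both loss arrays were the lowest of the 16. The mean was 2.96-fold lower than with SmoM2 alone (−1.57 ± 0.50, adjusted p 0.127) and 2.50-fold lower than control (−1.32 ± 0.50, adjusted p 0.250). A further Lor probe set, bright as well, gave −1.01 against SmoM2 alone.

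The other named members of that comparison were Lce1f (−2.02 ± 1.00), Klk13 (−1.98 ± 0.92) and Lce1i (−1.67 ± 0.76) on the lower side, and Ivl (1.00 ± 0.77), Tchh (0.88 ± 0.38), Aloxe3 (0.77 ± 0.26) and Dmkn (0.66 ± 0.59) on the higher side. Their adjusted p-values ran from 0.154 (Aloxe3) to 0.623 (Dmkn). Dmkn turned to −0.18 without 4-week replicate 1, and Ivl was at 0.02 without loss replicate 1. Aloxe3, a lipoxygenase of the barrier lipids, read 7.11 and 6.39 with β-catenin loss and 5.93, 6.19 and 5.81 with SmoM2 alone, with no overlap, and 6.04, 6.72 and 6.24 in controls.

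Suprabasal markers outside the members had means of 9.98 and 9.95 with β-catenin loss, below the controls (10.87 to 11.41). The 4-week arrays with SmoM2 alone were at 9.19, 8.94 and 10.00. Of all 12 suprabasal markers, members included, 8 were higher in mean than with SmoM2 alone and 4 lower. Gli1 was lower in mean with β-catenin loss than with SmoM2 alone (−2.06 ± 0.60, adjusted p 0.0995), with replicate 1 the lower loss array. Replicate 1 was the lower for 10 of 10 Lce1 genes but for only 19 of 49 members, and the higher for 5 of 5 other envelope genes, 4 of 4 fused S100 genes and 4 of 4 Lce3 genes. Whether the members' values go with β-catenin or with hedgehog activity cannot be told apart in these groups.

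Markers of other cells differed in this comparison too. The bulge and outer root sheath markers had means of 7.70 and 8.57 with β-catenin loss and 9.07, 10.07 and 9.68 with SmoM2 alone, lower for 8 of 8, and Lgr6 fell (−4.09 ± 0.60, limma, adjusted p 0.0122). The sebaceous markers had means of 8.89 and 8.61 against 7.60, 5.87 and 7.50, higher for 7 of 7. The basal markers had means of 11.57 and 11.88 against 11.45, 11.40 and 11.24, higher for 8 of 11, and Itga3 rose (1.23 ± 0.26, limma, adjusted p 0.0409). Fibroblast and tail scale and hair markers were lower for 7 of 7 each, with Krt35 passing the test (−1.57 ± 0.33, limma, adjusted p 0.0385), and melanocyte markers for 8 of 8. The part of other cells in the members' values was not tested.

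**Figure D4:**
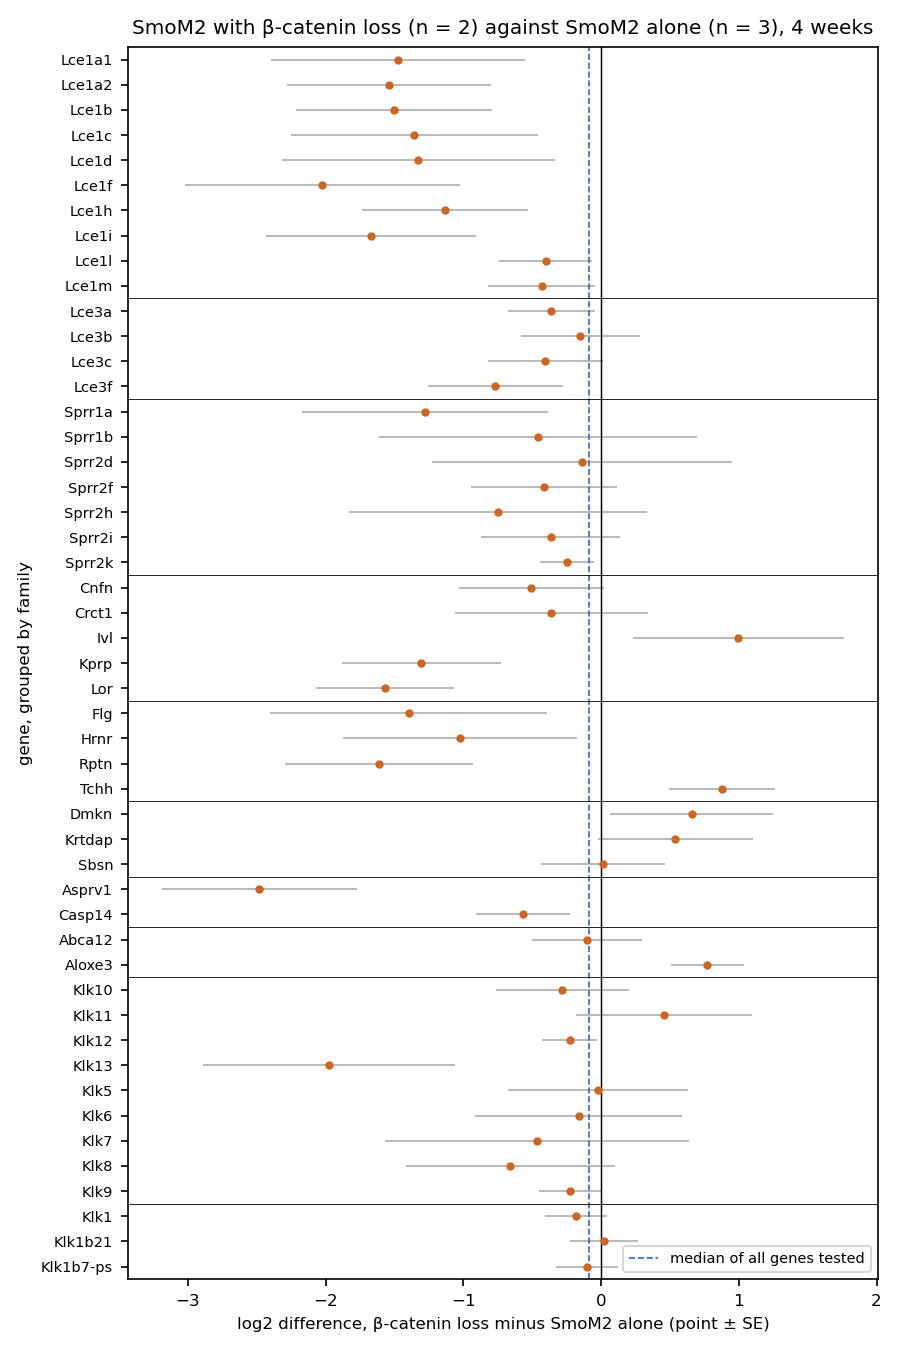
Difference of log2 means between SmoM2 with β-catenin loss (n = 2) and SmoM2 alone at 4 weeks (n = 3) for the 49 tested members, as point ± SE on the horizontal axis, grouped by family. All 10 Lce1 genes lie below 0, and Ivl, Tchh, Aloxe3 and Dmkn lie above it; the dashed line is the median of all genes tested (−0.09).

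Involucrin, the scaffold on which the envelope is laid down, had loss arrays far apart, 1 of them within the controls. Ivl read 5.76, 5.02 and 5.08 in controls, 5.93 at 3 days, 6.87, 5.88 and 5.93 at 1 week, 4.62, 4.67 and 7.30 at 4 weeks, 5.53 and 4.78 at 10 weeks and 7.50 and 5.55 with β-catenin loss. The 1-week arrays were all above the controls (0.94 ± 0.69, adjusted p 0.9999), and those at 4 weeks lay at both ends of the range. Cnfn (cornifelin), Crct1 and Kprp, further envelope genes, were 2.51-, 2.91- and 2.78-fold higher at 3 days, all above every control, with SEs of 0.66 to 0.89 on the log2 scale. At 10 weeks they differed from control by 0.88, 0.72 and −0.27, the first 2 with both arrays above every control. With β-catenin loss Kprp read 5.26 and 4.85, below every control (5.74 to 6.90), and Crct1 read 7.90 and 5.53, on either side of them.

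The 4 members of the fused S100 family differed from one another. Repetin (Rptn) read 4.43, 3.62 and 4.29 in controls, 4.58 at 3 days, 5.78, 5.18 and 3.53 at 1 week, 4.59, 5.52 and 6.84 at 4 weeks, 5.86 and 6.22 at 10 weeks and 4.50 and 3.59 with β-catenin loss. All 3 controls lay below their arrays' 40th percentiles (4.88 to 4.99). Its differences from control were 1.54 ± 0.61 at 4 weeks (adjusted p 0.243) and 1.93 ± 0.68 at 10 weeks (adjusted p 0.263). Together with Asprv1 it made up the 2 members whose 4-week arrays all lay above the controls (9.17% of all genes), and 0 had all of them below (8.12%). Without 4-week replicate 3 its difference was 0.94, and 2 further, dimmer probe sets of Rptn gave 0.06 and −0.20.

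Profilaggrin (Flg) read 4.42, 6.01 and 5.23 in controls, 6.74 at 3 days, 6.23, 7.44 and 5.08 at 1 week, 3.39, 5.60 and 7.61 at 4 weeks, 5.80 and 6.14 at 10 weeks and 4.72 and 3.55 with β-catenin loss. Its 4-week arrays held the lowest and the highest IFE values. The differences from control were 1.03 ± 0.90 at 1 week, 0.31 ± 0.90 at 4 weeks, 0.75 ± 1.00 at 10 weeks and −1.09 ± 1.00 with β-catenin loss.

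Hornerin (Hrnr), a filaggrin-like protein, had the largest 3-day difference of any member (3.32 ± 1.07). It read 3.69, 6.41 and 5.89 in controls, 8.65 at 3 days, 4.17, 4.39 and 5.65 at 1 week, 3.42, 3.93 and 6.13 at 4 weeks, 4.33 and 4.65 at 10 weeks and 3.65 and 3.29 with β-catenin loss. The 3-day array was the highest of the 16 and both loss arrays were below every control, but the controls alone spanned 2.72. At 4 and 10 weeks the differences were −0.84 ± 0.76 and −0.84 ± 0.85. Trichohyalin (Tchh), known best from the inner root sheath of the hair follicle, read 6.37, 5.69 and 6.32 in controls, 5.32 at 3 days, 6.38, 7.29 and 5.99 at 1 week, 6.46, 5.75 and 5.86 at 4 weeks, 6.20 and 6.35 at 10 weeks and 7.25 and 6.54 with β-catenin loss. The 3-day array was the lowest IFE array, and the loss arrays lay above the controls (0.77 ± 0.38, adjusted p 0.380).

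The secreted proteins Krtdap, Dmkn and Sbsn, which suprabasal keratinocytes release, were within 1 log2 unit of the control mean on all IFE arrays but 4-week replicate 1. Krtdap read 13.00, 13.66 and 13.36 in controls, 13.63 at 3 days, 12.58, 13.22 and 13.38 at 1 week, 10.91, 13.13 and 13.28 at 4 weeks, 13.56 and 13.59 at 10 weeks and 12.95 and 13.01 with β-catenin loss. Replicate 1 at 4 weeks was the lowest IFE array for all 3, at 9.98 for Dmkn and 10.98 for Sbsn. It set the 4-week differences of −0.90 ± 0.50 for Krtdap (adjusted p 0.465) and −0.88 ± 0.53 for Dmkn (adjusted p 0.520), which were −0.14 and −0.04 without it. At 10 weeks the family's median was 0.23.

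Among the epidermal kallikreins, Klk8 (neuropsin) had the most negative 4-week difference of all members. It read 10.20, 9.35 and 8.85 in controls, 9.19 at 3 days, 8.45, 7.28 and 8.89 at 1 week, 6.27, 7.50 and 9.35 at 4 weeks, 8.26 and 8.52 at 10 weeks and 7.56 and 6.54 with β-catenin loss. The 10-week and loss arrays lay below every control, and 4-week replicate 3 lay among the controls. The differences were −1.76 ± 0.68 at 4 weeks (adjusted p 0.225) and −1.08 ± 0.76 at 10 weeks (adjusted p 0.750). Without 4-week replicate 1 the first was −1.04 (adjusted p 0.489), and without replicate 3 −2.58 (adjusted p 0.0425).

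Klk5 and Klk7 are the proteases that shed surface cells. Klk5 read 8.43, 7.32 and 7.34 in controls, 7.54 at 3 days, 8.02, 6.59 and 7.01 at 1 week, 6.35, 6.52 and 7.36 at 4 weeks, 6.60 and 6.51 at 10 weeks and 7.97 and 5.48 with β-catenin loss. At 4 weeks its difference was −0.95 ± 0.58 (adjusted p 0.529). Both 10-week arrays were below every control (−1.14 ± 0.65, adjusted p 0.634), and the loss arrays were far apart. Klk7 read 8.22, 8.07 and 7.26 in controls, 8.92 at 3 days, 8.95, 9.47 and 9.14 at 1 week, 6.92, 8.77 and 10.92 at 4 weeks, 8.22 and 8.08 at 10 weeks and 10.39 and 6.41 with β-catenin loss. All 1-week arrays were above the controls (1.34 ± 0.99), and the 4-week and loss arrays lay on either side. Its 4-week difference of 1.02 ± 0.99 was −0.01 without replicate 3.

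Klk11 had a 4-week mean 2.35-fold lower (−1.23 ± 0.57, adjusted p 0.342), with arrays at 4.65, 6.81 and 6.88 against 6.57, 8.04 and 7.43 in controls. Klk13 was 2.27-fold higher at 10 weeks (1.18 ± 0.92) and 3.13-fold lower with β-catenin loss than in control (−1.65 ± 0.92), with no overlap in either. Klk6 differed by 0.83 ± 0.67 at 4 weeks and by 0.49 ± 0.75 at 10 weeks.

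The remaining families differed little in mean. The 4 Lce3 genes had medians between −0.38 and 0.24 in the 8 IFE comparisons, the 3 tested glandular kallikreins between −0.23 and 0.11, and the lipid genes Abca12 (a lipid transporter of lamellar granules) and Aloxe3 between −0.14 and 0.34. Klk1, a glandular kallikrein, differed from control by −0.47 at 10 weeks, and Aloxe3 by −0.28. Lce3f was 2.10-fold lower with β-catenin loss than in control and was the 1 Lce3 gene below every control there. The 12 members too dim to test were Alox12b, Klk4, Lce1g, Sprr3, Sprr2j-ps and 7 glandular kallikreins (Klk1b1, Klk1b5, Klk1b8, Klk1b11, Klk1b16, Klk1b24 and Klk1b27). Their signals over the 16 arrays ran from 3.01 to 5.01, save for Sprr2j-ps at 6.35 on the bulge SmoM2 array. Alox12b, the partner lipoxygenase of Aloxe3, read 4.05, 4.30 and 4.15 in controls, 4.68 at 3 days, 4.51, 3.97 and 4.28 at 1 week, 3.87, 3.83 and 4.83 at 4 weeks, 4.25 and 4.16 at 10 weeks and 4.25 and 3.94 with β-catenin loss, and 3.95 and 4.22 in the bulge pair. Lce1g was highest at 3 days (5.01), as were most Lce1 genes tested among the IFE arrays.

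At 1 week against control the members' median was −0.11, against −0.00 over all genes. At least 2-fold higher were 4 of 49 (2.2% of all genes): Asprv1, Klk7, Sprr1a and Flg. In 4 members, Asprv1, Ivl, Klk7 and Sprr1a, all 1-week arrays lay above all controls (4.63%). Klk8 was the 1 member at least 2-fold lower (1.05%; −1.26 ± 0.68), and Klk11 (−0.95), Sprr2d (−0.76) and Lce1d (−0.61) followed, with groups that overlapped. Without control replicate 1, 4 were at least 2-fold lower, and without 1-week replicate 3, 3. Replicate 3 had the lowest Gli1 of the 1-week group, and the lowest Asprv1 and Rptn as well.

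Between 1 and 4 weeks the members' median difference was 0.08 (all genes −0.04). At least 2-fold higher at 4 weeks were 2 of 49 (1.53% of all genes), Sprr2d (1.27 ± 0.97) and Sprr2i (1.10 ± 0.45), and at least 2-fold lower 0 (1.42%). Asprv1 (0.99 ± 0.63) and Klk13 (0.87 ± 0.82) came next, and Flg (−0.72), Ivl (−0.70), Dmkn (−0.64) and Krtdap (−0.62) were lowest. Without 4-week replicate 1 the counts at least 2-fold higher and lower were 12 and 0, 3 and 1 without replicate 2, and 0 and 12 without replicate 3. Without 1-week replicates 1, 2 and 3 in turn they were 4 and 0, 4 and 0, and 1 and 1. With array weights 8 were at least 2-fold higher, and with Y-linked signal as a covariate 5.

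Between 4 and 10 weeks the median was 0.21 (all genes −0.03). At least 2-fold higher at 10 weeks were 6 of 49 (2.04% of all genes) and lower 0 (1.48%), with Sprr1b (2.07 ± 1.15), Sprr2d (1.71 ± 1.09), Sprr2h (1.49 ± 1.08) and Klk11 (1.33 ± 0.64) first. In 4 members, Dmkn, Klk11, Krtdap and Sprr2k, the 10-week arrays lay above all 4-week arrays (13%). Klk7 (−0.72), Lor (−0.48), Ivl (−0.38) and Klk6 (−0.35) were lower in mean. Without 4-week replicate 1, 0 members were at least 2-fold higher and 1 lower, and without replicate 3, 16 and 0.

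In the bulge and outer root sheath pair the members stood far apart. From the array labelled bulge control to the bulge SmoM2 array, 45 of 49 members were higher (52.1% of all genes), 33 at least 2-fold (4.35%) and 20 at least 4-fold (1.16%), and 0 were at least 2-fold lower (2.59%). The median difference was 1.54, against 0.01 over all genes. With 1 array each there is no test and no replicate check. On the bulge control array 12 of the 49 lay below the array's 40th percentile (4.91). Of the other 37, 33 were higher, 23 at least 2-fold and 15 at least 4-fold. The shares of all genes above the percentile on that array were not counted. Among these 37 Lce1c, 5.21 and 9.24 (16.3-fold), and Sprr1a, 6.58 and 10.36 (13.7-fold), differed most. Rptn read 3.55 and 8.07, the first of these below the percentile, so no fold is given for it.

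Sprr genes had the highest family median of the bulge pair: of the 5 above the percentile on the bulge control array, 5 were higher and 4 at least 2-fold, with a median of 3.65. The fused S100 genes followed (4 of 4 at least 2-fold, though Rptn, Hrnr and Tchh were below the percentile on the control array), then 8 Lce1 genes above it (8 higher, 7 at least 2-fold, median 2.05), the secreted proteins (3 of 3 at least 2-fold, median 1.59) and the epidermal kallikreins (9 of 9 higher, 7 at least 2-fold, median 1.48, with Klk10, Klk11, Klk12 and Klk13 below the percentile on the control array). Asprv1 read 6.80 and 9.28 and Flg 5.08 and 7.53. Lor differed less, 8.43 and 9.28, and Krtdap read 10.95 and 12.91. The 4 members that were lower were Ivl (7.10 and 6.63), Klk1b7-ps (4.96 and 4.77), Casp14 (7.30 and 7.15) and Aloxe3 (5.93 and 5.85). The further probe set of Casp14 went the other way, 4.68 and 5.47. The bulge SmoM2 array was the highest of all 16 for 12 of 49 members (3.83% of all genes).

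**Figure D5:**
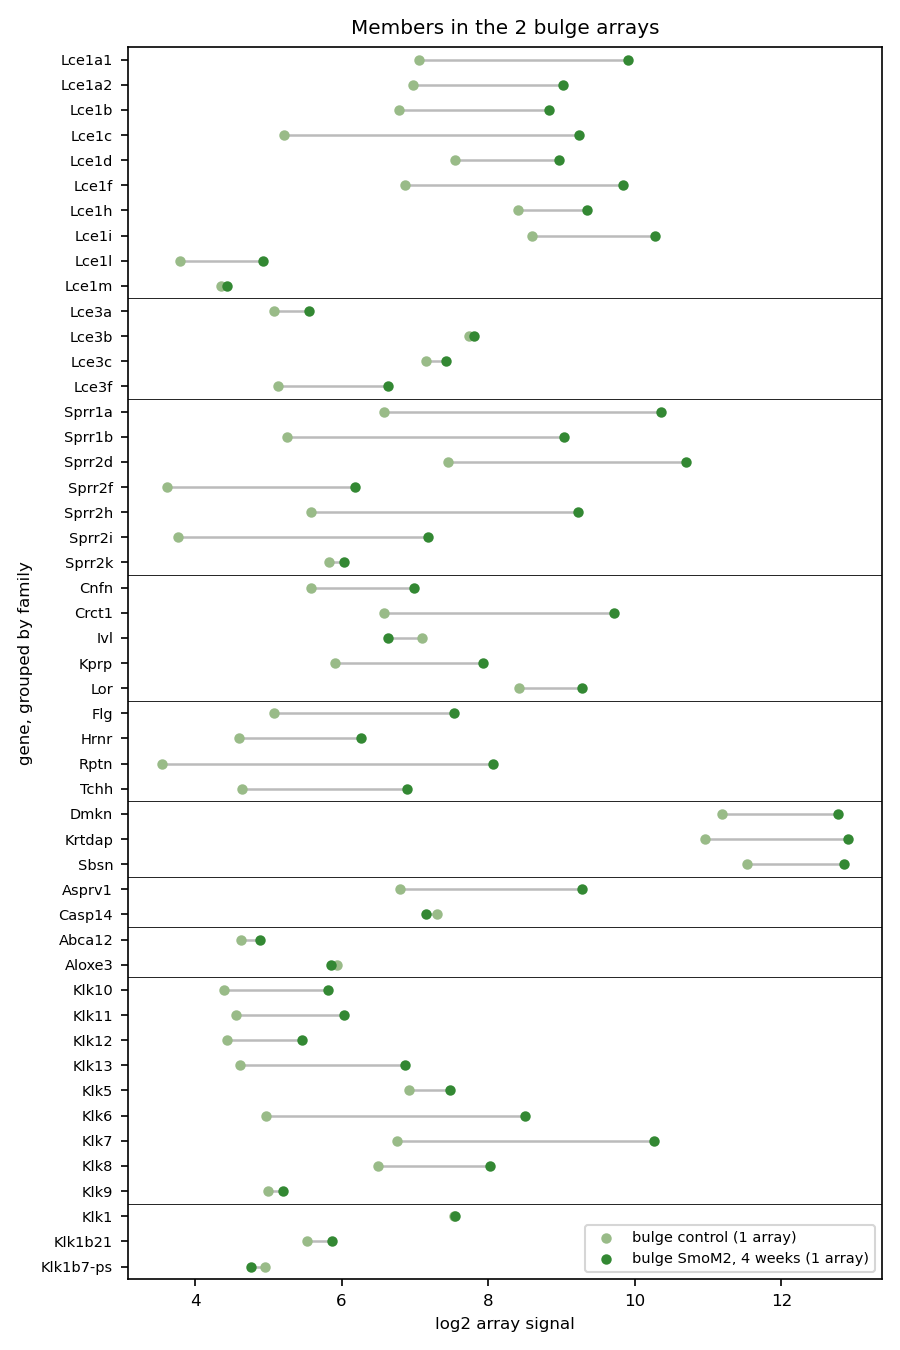
Log2 array signal (horizontal axis) of the 49 tested members, grouped by family, on the bulge control array (light) and the bulge SmoM2 array (dark), 1 array each. Rptn, Lce1c, Sprr1b and Sprr1a have the longest lines, and Ivl, Casp14, Aloxe3 and Klk1b7-ps lie to the left on the SmoM2 array.

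Markers of other cells differed between these bulge arrays too. The suprabasal markers outside the members (7 genes) had means of 8.74 and 10.60, the inner root sheath markers (7 genes, Tchh among them) 5.61 and 7.43, the leukocyte markers (8 genes) 5.82 and 6.81 and the fibroblast markers (7 genes) 5.81 and 6.96. Tchh itself read 4.64 and 6.90. S100a8 read 8.53 and 12.17, while Gli1 was level. The part of cell composition in the members' difference was not tested.

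Set beside the 3 IFE controls, the array labelled bulge control was lower for 37 of 49 members (58.2% of all genes), below all 3 for 23 (34.9%) and at least 2-fold below their mean for 11 (5.68%). All 9 epidermal kallikreins were lower, Klk8 most (−2.97). Ivl was the 1 member at least 2-fold higher (7.24%), by 1.82.

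Genes of cornification outside these families were set beside the members: 59 were listed, 55 were on the array and 52 were tested. By limma 3 rose and 2 fell at 4 weeks (3.24% of all genes passed), and 3 rose and 0 fell at 10 weeks (0.7%). The medians were −0.07 and 0.06. At an unadjusted p under 0.05, 6 were higher and 12 lower at 4 weeks (8.67% and 6.42% of all genes). At 10 weeks 10 were higher and 3 lower (6.15% and 4.49%). Tgm5, a transglutaminase, rose at both times (3.87 ± 0.69, adjusted p 0.0200, and 4.33 ± 0.77, adjusted p 0.0319). So did Prdm1, a transcription factor of terminal differentiation (3.09 ± 0.51, adjusted p 0.0139, and 3.86 ± 0.57, adjusted p 0.0170), and the tight junction gene Cldn1 (1.37 ± 0.30, adjusted p 0.0345, and 1.80 ± 0.34, adjusted p 0.0434). Tgm5 read 5.60 to 5.86 in controls and 10.05, 9.42 and 9.36 at 4 weeks. Some of the 52 split at 4 weeks in the order of the members, and some did not. Among the first were Csta1 at 4.14, 5.98 and 9.24, Elovl4 at 6.55, 7.55 and 9.13 and Tgm1 at 4.73, 5.78 and 7.47. Among the second were Cers3 at 8.37, 6.26 and 8.22 and Scel at 12.08, 10.67 and 11.32. All were chosen after their values were seen. Replicate 1 was the lowest for 28 of the 52 and replicate 3 the highest for 31.

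Those that fell at 4 weeks were Tgm3, a late transglutaminase of the envelope (−3.37 ± 0.50, adjusted p 0.0101), and the keratin Krt2 (−3.83 ± 0.85, adjusted p 0.0349). Krt1 (−1.34 ± 0.45, adjusted p 0.155) and Krt10 (−0.94 ± 0.26, adjusted p 0.0781) were lower in mean. Tgm1, which cross-links the envelope, and Cdsn, which holds its junctions, differed by −0.25 ± 0.55 and 0.21 ± 0.43. With β-catenin loss 0 of the 52 passed by limma against control (0.371% of all genes). At an unadjusted p under 0.05, 3 were higher and 9 lower (6.14% and 8.48% of all genes). Against SmoM2 alone 0 passed (2.23%), with 4 higher and 6 lower at an unadjusted p under 0.05 (6.57% and 10.6%). With β-catenin loss Tgm5 differed from control by 0.84 ± 0.77 and Tgm3 by −2.05 ± 0.55. At 1 week and between stages 0 passed by limma, as over all genes. At an unadjusted p under 0.05, up to 9 were higher (from 4 to 10 weeks, 2.95% of all genes). Up to 6 were lower (from 1 to 4 weeks, 1.74%).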

How the data were processed

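Cells of 8 groups were measured on 16 Affymetrix arrays, and groups were taken from the sample titles. RNA was amplified with a 3′ in vitro transcription kit, per the labels' protocols. The authors deposited 1 table of log2 signals for 45101 probe sets, a scale read from its range; array medians ran from 5.38 to 5.53. R 2.14.0 is named in the submitters' processing notes, and how background and scale were handled there is not given in the sources used here. Precision is limited by the number of arrays.

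Probe sets with 1 symbol in the array annotation (34958) were used as deposited; 932 with several symbols and 9211 with none were left out. Group means were fitted over the 14 IFE arrays with limma 3.58.1 (R 4.3.3) and adjusted by Benjamini-Hochberg over 14286 genes. Each gene had 1 spread for all groups, so arrays far apart at 4 weeks or with β-catenin loss widened the SEs of every comparison. The lone 3-day array took its spread from the other groups. The fit was tested on simulated data. Deviations from group means were correlated between arrays over all 14286 genes, not over the members alone. Control, 1-week and 4-week arrays with the same number in the titles deviated together (correlations 0.34 to 0.70), which pairs those arrays. The 10-week and β-catenin loss arrays did not (−0.18 to 0.12). Alternatives were quantile normalization, no filter, the mean of all probe sets, array weights, only the groups compared, the replicate block, Y-linked signal as a covariate, and leaving out each array.

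Named members were the 6 largest differences each way at 4 and 10 weeks, the 4 largest at 1 week, between stages and with β-catenin loss, and the 3 largest at 3 days and in the bulge pair, with Lor, Ivl, Flg, Krtdap, Casp14, Alox12b, Tchh and Sprr1a throughout; others named were singled out after their values were seen. The members, gene lists and motifs were chosen with earlier results of these data known. Some listed genes are not reported here. Start regions came from RefSeq (GRCm38.p6). The build behind the array annotation is not given in the sources used here.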

Additional observations from a re-analysis of the deposited data

Results flagged for a closer look

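The search covered only the members named for 4 weeks against control. In 4 of these every 4-week IFE array lay below the IFE control mean, while the bulge SmoM2 array lay above the array labelled bulge control. Klk9 and Klk1, outside that search, had the same order, with bulge differences of 0.196 and 0.0043. The difference between the tissues was not tested. Klk8 differed by −3.19, −1.97 and −0.12 on the 3 IFE arrays and by 1.54 in the bulge pair. For Klk11 the values were −2.69, −0.54 and −0.46, and 1.48. For Klk5 they were −1.35, −1.17 and −0.33, and 0.56. Krtdap, a secreted protein of suprabasal keratinocytes, had −2.43, −0.21 and −0.06, and 1.95.

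The choice of probe sets with 1 symbol left out 3 that read several Sprr2 genes. Of these, 2 were bright on every array (at least 6.84) and 1 was dim. They differed by 4.18, 3.96 and 2.71 between the bulge arrays, in the direction of the Sprr members. At 4 weeks against IFE control the same 3 differed by −1.97, −1.94 and −0.97, and at 10 weeks by −1.49, −1.20 and −0.72. These differences run opposite to the 10-week differences of the 7 Sprr members tested. They have no gene of their own here and were not tested.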

How the results depend on the processing

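The count of members past the threshold was 0 in every comparison as reported. At 4 weeks it was 1 (Asprv1) with quantile normalization (452 of 14286 genes passed), array weights (320), the replicate block (873) and Y-linked signal as a covariate (403). When each array was left out it was 0 to 1. The 1 was Sprr2i without 4-week replicate 1 (139 genes passed), Asprv1 without replicate 2 (237) and Klk8 without replicate 3 (410). At 10 weeks it was 4 of 49 with array weights (Asprv1, Rptn, Sprr2i and Sprr2k), where 1545 of 14286 genes passed. With only the groups compared it was 6 (Asprv1, Rptn, Sprr1a, Sprr1b, Sprr2d and Sprr2i), where 738 genes passed. It was 0 when each control array was left out. For β-catenin loss against SmoM2 alone it was 1 (Asprv1) without 4-week replicate 2, where 229 genes passed, and 0 without either other 4-week array. The replicate block changed no other call.

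Some differences took both signs when 1 array was left out. At 4 weeks they were Klk7 (−0.01 to 1.99) and Sprr1a (−0.07 to 1.59), with β-catenin loss Klk6 against control (−0.72 to 2.07) and Dmkn against SmoM2 alone (−0.18 to 1.10). From 1 to 4 weeks they were Flg (−1.76 to 0.35), Dmkn (−1.08 to 0.20), Krtdap (−1.04 to 0.14) and Klk13 (−0.32 to 1.89), and from 4 to 10 weeks Klk7 (−1.69 to 0.31), Ivl (−0.84 to 0.51) and Klk6 (−0.89 to 0.25). In each the turn came without 4-week replicate 1 or 3, or for Klk6 against control without loss replicate 1. Kprp at 10 weeks turned to 0.13 with Y-linked signal, and Flg from 1 to 4 weeks to 0.08 with array weights. The causes were not tested. Members' medians moved by less than 1 SD between replicates (0.54) in all 97 recomputations. That SD came from the same members and arrays, the spread 4-week arrays among them, so moves within it do not show stability. The medians took both signs at 4 weeks (−0.27 to 0.49), at 4 against 1 week (−0.25 to 0.43) and at 10 against 4 weeks (−0.12 to 0.64). Counts of members at least 2-fold apart and the Lce1 medians were recomputed after the data were seen. From 4 to 10 weeks, members at least 2-fold higher numbered 12 with the replicate block by the titles' numbers and 2 by the descriptions', in place of 6. With only members above the percentile on 2 or more control arrays, also chosen after the data were seen, the 3-day Lce1 median was 1.97, and members at least 2-fold higher numbered 15 at 3 days and 6 at 10 weeks.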
